A study of Mus musculus with 12 samples.

Results

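Apoe, Apoc1 and Apoc2 encode 3 small secreted apolipoproteins, and their probes were followed here in splenic CD11c+ cells of mice with and without Apoe. They are 3 of the 20289 genes that the array's probe list names. All probes assigned to these symbols were taken, which gave 5 of the 46237 probes on the array: 1 for Apoe, 2 for Apoc1 and 2 for Apoc2. Every one of the 5 had a detection p under 0.05 on all 12 arrays, so none was lost to the filter on dim probes, and 26390 probes were tested in all. The probes are reported one by one, because the Apoc2 probes differed from each other. CD11c is the integrin subunit that marks dendritic cells and some macrophages, and the cells were pulled from spleens with CD11c magnetic beads.

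The 12 samples, 1 per Illumina MouseWG-6 v2 bead array, formed 4 groups of 3. Bl6 mice, called wild type in the protocol, were fed normal chow in one group and a high-cholesterol diet in the other, which the series' design text calls high fat. ApoE-/- mice, the knockouts, were fed the same chow or the same diet, and no group received any other treatment. The labels do not give the animals' age or sex, the construction of the knockout allele, or whether the samples of a group came from separate mice. The p-values therefore rest on a spread between samples that could be technical.

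The array columns carry the numbers 1 to 12, and these numbers are used below. Arrays 1 to 3 are named ApoE-/- on chow and arrays 4 to 6 ApoE-/- on the high-cholesterol diet in the table of intensities. Arrays 7 to 9 are Bl6 on chow and 10 to 12 Bl6 on the high-cholesterol diet. A second deposited table, on the log2 scale, holds the values of arrays 4 to 6 under the names of 1 to 3, and the reverse, so the diets of the knockout arrays are in doubt. The intensity table's names were used, and a result that turns on them is given with the names exchanged too. Median intensity ran from 102 to 120 over the arrays, and 47.7% to 50.3% of probes were detected.

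Apolipoprotein E sits on chylomicron remnants, very low density lipoproteins and high density lipoproteins, and carries them to the low density lipoprotein receptor family for uptake. Liver makes most of it, and macrophages are its best known source outside the liver and brain; they use it to carry cholesterol out of the cell. Apolipoprotein C1 slows that receptor-mediated uptake, and apolipoprotein C2 is the cofactor that lipoprotein lipase needs to break down triglycerides. The genes lie side by side, and in macrophages the oxysterol receptors called LXR raise the whole cluster through enhancers downstream of Apoe. Mice without Apoe clear remnants poorly, have high plasma cholesterol and develop atherosclerosis.

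In the RefSeq annotation of GRCm38.p6 the cluster lies on the minus strand of chromosome 7 and spans 29732 bases. In the order of the coordinates, Apoc2 lies at chr7:19671579-19677941, Apoc4 at chr7:19678084-19681460, Apoc1 at chr7:19689480-19692659 and Apoe at chr7:19696244-19701310. Apoc2 is thus the member farthest from Apoe, and Apoc1 lies 3584 bases from it. Apoc4, the other apolipoprotein gene of the cluster, had 1 probe, ILMN_3009225, which was detected on 2 arrays and was not tested. The position of each probe within its transcript was not used here, and transcripts of neighbouring genes that overlap a member cannot be told apart from it.

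The promoter windows of Apoe and Apoc2 are shown, and none was available here for Apoc1. Both are RefSeq sequences of GRCm38.p6, minus strand, running from upstream of a transcript start to just past it (300 bases), and the Apoe window is the first of 3 listed for the gene. Capitals mark AGGTCA, the half-site of nuclear receptors such as LXR and its partner RXR.
Apoe, chr7:19699139-19699438: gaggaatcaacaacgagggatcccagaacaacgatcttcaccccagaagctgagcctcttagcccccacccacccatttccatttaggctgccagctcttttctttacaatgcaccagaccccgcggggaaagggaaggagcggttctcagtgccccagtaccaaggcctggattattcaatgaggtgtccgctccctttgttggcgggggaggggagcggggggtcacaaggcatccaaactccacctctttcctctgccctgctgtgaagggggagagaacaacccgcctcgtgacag
Apoc2, chr7:19677892-19678191: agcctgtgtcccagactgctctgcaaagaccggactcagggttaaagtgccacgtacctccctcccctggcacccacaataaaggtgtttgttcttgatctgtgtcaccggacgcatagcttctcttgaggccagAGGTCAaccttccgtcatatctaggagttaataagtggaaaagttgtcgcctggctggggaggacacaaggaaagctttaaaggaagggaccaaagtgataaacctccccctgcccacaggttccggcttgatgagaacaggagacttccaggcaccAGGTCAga
On both strands, 5 motifs were searched: the TATA box spelled TATAAA, the GC box spelled GGGCGG, the half-site spelled AGGTCA, the E-box spelled CACGTG, and the direct repeat of the half-site spaced by 4 bases, whose matches also count as half-sites. The Apoe window held none of them, while the second of its 3 windows held the TATA box at 2 overlapping places, 1 on each strand, and the third held none. The Apoc2 window held the half-site at 2 places, starting 115 bases before the transcript start and 42 bases after it. Among all 32817 promoter windows of this length, 16.3% held the half-site, 13.6% the TATA box, 35.6% the GC box, 7.15% the E-box and 0.0152% the spaced repeat.

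Apoe was lower in every knockout array than in any Bl6 array, by about 7 log2 units, and 1 Apoc2 probe fell by 3.60 there. The other Apoc2 probe and both Apoc1 probes did not pass when averaged over diets. On chow, Apoc1 was higher in the knockout by 0.89 and 0.98 log2 units on its 2 probes. These calls were lost in 11 and 5 of the 12 fits that left out 1 array. Sex-linked genes also parted the genotypes, so genotype and sex cannot be told apart. In Bl6 cells Apoc1 was about 3-fold higher on the high-cholesterol diet, with the smallest p-values of that comparison. The question these comparisons address, from the series' title, is the part that apolipoprotein E from CD11c+ cells plays in atherosclerosis.

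Apoe, the targeted gene, was checked first through its probe ILMN_1216042, on the normalised log2 scale used for all values below. It read 5.52, 5.93 and 5.50 on the ApoE-/- chow arrays and 5.61, 5.80 and 5.75 on the ApoE-/- high-cholesterol arrays. It read 12.18, 12.33 and 12.26 on the Bl6 chow arrays and 13.11, 13.29 and 13.04 on the Bl6 high-cholesterol arrays. All 6 knockout arrays lay far below all 6 Bl6 arrays, as the labels have it, and within Bl6 the 3 high-cholesterol arrays lay above the 3 chow arrays. In the deposited intensities the group means were 143 ± 4.46 (SD, n = 3) and 138 ± 10.1 (SD, n = 3) in the knockout, against 4657 ± 313 and 9560 ± 1011 in Bl6. The probe was still detected on all 6 knockout arrays.

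Apoc1 was measured by 2 probes. ILMN_1228469 read 8.67, 8.67 and 8.19 in Bl6 on chow and 10.10, 10.25 and 10.22 in Bl6 on the high-cholesterol diet. In ApoE-/- it read 9.46, 9.40 and 9.34 on chow and 9.85, 9.41 and 9.52 with high cholesterol. The knockout arrays of both diets lay between both Bl6 groups, with no overlap on either side. The second probe, ILMN_2599794, read 9.70, 9.95 and 9.64 in Bl6 on chow and 11.28, 11.56 and 11.31 in Bl6 on the high-cholesterol diet. In ApoE-/- it read 10.82, 10.81 and 10.59 on chow and 11.08, 10.64 and 10.64 with high cholesterol. The order was the same as on the first probe: Bl6 on chow lowest, all 6 knockout arrays in the middle, Bl6 on the high-cholesterol diet highest. That order does not turn on which knockout arrays had which diet. It is given as description, without the share of all probes that show it. The ranges of both knockout groups overlapped on each probe.

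Apoc2 was also measured by 2 probes. ILMN_2647820 read 8.62, 8.46 and 9.04 in Bl6 on chow and 8.91, 9.51 and 8.99 in Bl6 on the high-cholesterol diet. In ApoE-/- it read 5.04, 5.43 and 5.26 on chow and 5.12, 5.28 and 5.79 with high cholesterol. The genotypes did not overlap, while both diets overlapped within each genotype. The other probe, ILMN_2880540, was dim on every array, with intensities of 105 to 163. It read 4.65, 5.28 and 4.88 in Bl6 on chow, 4.83, 5.96 and 5.58 in Bl6 on the diet, 5.80, 5.80 and 5.37 in ApoE-/- on chow, and 6.04, 5.34 and 5.13 in ApoE-/- on the diet. Here the genotypes overlapped over both diets. On chow each ApoE-/- array read above each Bl6 array, a difference that did not pass in the test given below.

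**Figure D1:**
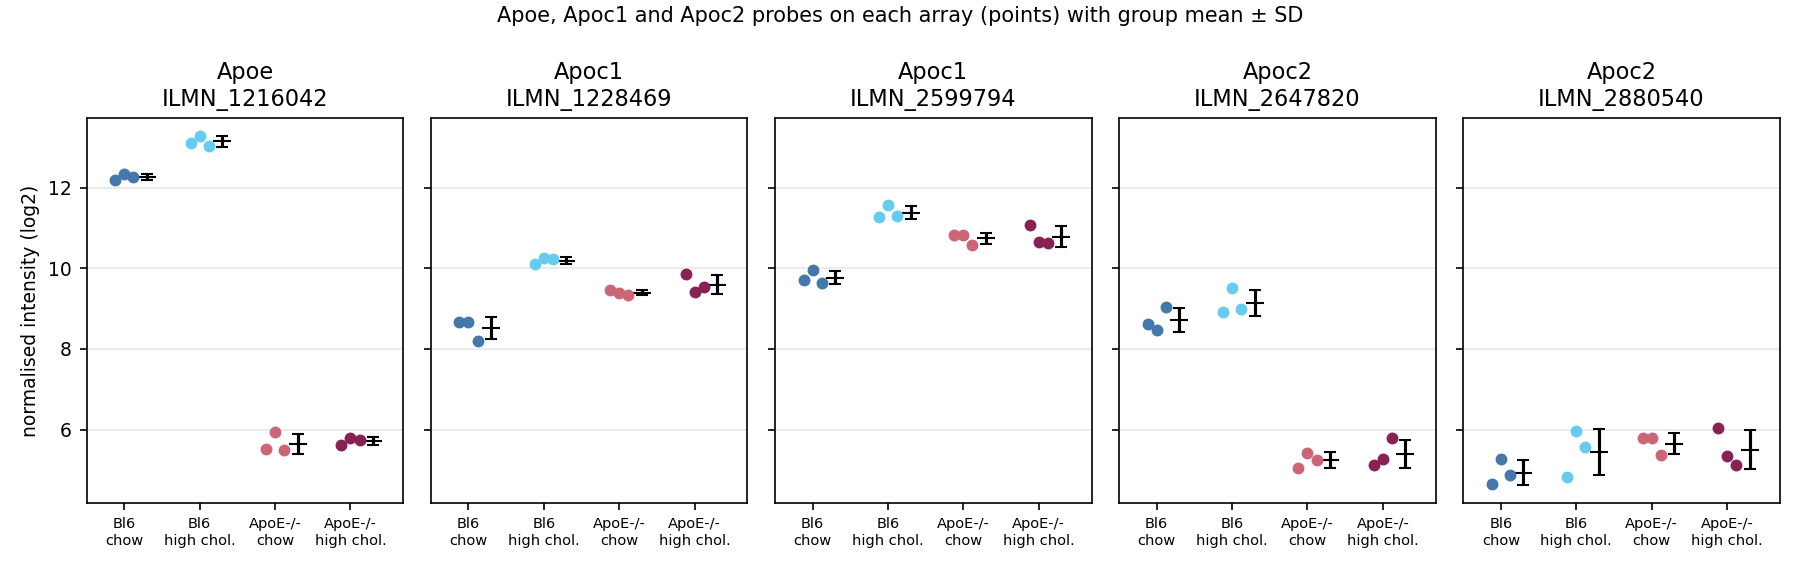
Normalised log2 intensity (y axis, shared) of each Apoe, Apoc1 and Apoc2 probe in the 4 groups (x axis). Points are single arrays, 3 per group in array order from left to right, and the bar beside them is the group mean ± SD. Apoe and the first Apoc2 probe drop from Bl6 to ApoE-/-, both Apoc1 probes place the 6 knockout arrays between both Bl6 groups, and the second Apoc2 probe stays between 4.65 and 6.04.

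The genotype comparison, averaged over both diets, gave 2 of the 5 probes past the threshold, an adjusted p under 0.05 by limma with Benjamini-Hochberg adjustment over all tested probes. Over all tested probes, 1.60% passed it, 0.652% higher and 0.951% lower in the knockout. Apoe was lower in ApoE-/- by a log2 difference of -7.01 ± 0.10 (SE), 129-fold (adjusted p = 3.96e-12), and it ranked first by p-value. The difference was -6.61 ± 0.14 on chow and -7.42 ± 0.14 with high cholesterol. The size changed with the processing: the averaged difference was -5.61 with the background left in, all else kept, and -5.55 in the authors' deposited log2 values, which also keep it but are scaled by a constant per array.

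Apoc2, read by ILMN_2647820, fell by 3.60 ± 0.16 on the log2 scale (adjusted p = 2.5e-07, rank 7 by p-value). The difference was -3.46 ± 0.22 on chow and -3.74 ± 0.22 with high cholesterol, and the averaged value was -2.18 with the background left in and -2.12 in the authors' log2 values. On ILMN_2880540 the averaged difference was 0.38 ± 0.21 with an adjusted p of 0.426. Both probes were then set against each other within each array. The first minus the second gave -0.26 ± 0.57 (SD, n = 6) in ApoE-/- and 3.73 ± 0.40 (SD, n = 6) in Bl6. The ranges were -0.92 to 0.66 and 3.19 to 4.16, which do not overlap. This is a description, since the probes were known to disagree, and the second probe lay near background in both genotypes. The files do not show which transcripts each probe detects.

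For Apoc1 the probes moved together. The first minus the second gave -1.27 ± 0.11 (SD, n = 6) in ApoE-/- and -1.22 ± 0.15 (SD, n = 6) in Bl6, a difference of -0.046 with overlapping ranges. Averaged over diets, the genotype difference was 0.15 ± 0.11 (adjusted p = 0.576) on ILMN_1228469 and 0.19 ± 0.11 (adjusted p = 0.434) on ILMN_2599794. These averages join differences of opposite sign on the separate diets.

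On chow, 4 of the 5 probes passed, against 0.254% of all tested probes, of which 0.0947% were higher and 0.159% lower in the knockout. Both Apoc1 probes rose, ILMN_1228469 by 0.89 ± 0.16 (adjusted p = 0.0482) and ILMN_2599794 by 0.98 ± 0.15 (adjusted p = 0.0265). The first lies close to the threshold and lost its call in 11 of the 12 fits that left out 1 array, with differences of 0.73 to 0.97. The second lost its call without array 1, 2, 3, 7 or 9 (0.92 to 1.07). With the knockout diets exchanged the differences were 1.09 (adjusted p = 0.0149) and 1.02 (adjusted p = 0.0197). With all 6 knockout arrays as 1 group, which needs no diet names, they were 0.99 (adjusted p = 0.00555) and 1.00 (adjusted p = 0.00298). That grouping, added after seeing the data, sets knockout arrays of both named diets against Bl6 on chow. It is thus not a genotype effect on chow.

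On the high-cholesterol diet, 2 of the 5 probes passed, Apoe and the first Apoc2 probe, against 0.765% of all tested probes, 0.280% higher and 0.485% lower. Apoc1 was -0.60 ± 0.16 (adjusted p = 0.123) on ILMN_1228469 and -0.60 ± 0.15 (adjusted p = 0.119) on ILMN_2599794, below 0 but short of the threshold. With all 6 knockout arrays as 1 group against the 3 Bl6 arrays, both Apoc1 probes passed, at -0.69 (adjusted p = 0.0233) and -0.62 (adjusted p = 0.0283). This grouping was added after seeing the data. It joins knockout arrays of both named diets, so it is not a genotype effect on the high-cholesterol diet.

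The diet comparison within Bl6 gave 2 of the 5 probes, both of Apoc1, where 0.0379% of tested probes passed (10 probes), 0.0227% higher on the diet and 0.0152% lower. Apoc1 rose by 1.68 ± 0.16 on ILMN_1228469, 3.21-fold, and by 1.62 ± 0.15 on ILMN_2599794, 3.07-fold, both with an adjusted p of 0.0042. They ranked first and second by p-value. The other 8 were Sdc2, Sostdc1, Ripply3 and Ctla2b, which rose, Sqle, Cyp51 and Cacna1d, which fell, and an unnamed probe that fell. Sqle and Cyp51 are enzymes of cholesterol synthesis, and they fell by 1.47 and 0.92 on the log2 scale.

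Apoe was 0.89 ± 0.14 higher on the high-cholesterol diet in Bl6 (95% interval 0.59 to 1.19), 1.85-fold, and its adjusted p of 0.0753 missed the threshold. It ranked 14 by p-value. It passed in 6 of 10 other settings, with adjusted p-values from 1.3e-05 to 0.228. Apoc2 gave 0.43 ± 0.22 (adjusted p = 0.483) on ILMN_2647820 and 0.52 ± 0.30 (adjusted p = 0.538) on ILMN_2880540, and the diets overlapped on both.

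In ApoE-/- no member and no other probe passed for diet in limma (0.00% of tested probes), while 981 probes had an unadjusted p under 0.05. Apoe differed by 0.07 ± 0.14, high-cholesterol diet minus chow. Apoc1 differed by 0.20 ± 0.16 on ILMN_1228469 and by 0.04 ± 0.15 on ILMN_2599794, and Apoc2 by 0.15 ± 0.22 and -0.15 ± 0.30. The adjusted p was 1 for each, and exchanging the diet names turns every sign.

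The interaction asks whether the diet effect differed between genotypes. Neither a member nor any other probe passed in limma (0.00% of tested probes), although 2006 had an unadjusted p under 0.05. The lowest p-value of all 26390 belonged to Apoc1 ILMN_2599794, at -1.57 ± 0.22, and ILMN_1228469 ranked 4 at -1.48 ± 0.22, each with an adjusted p of 0.105. With the knockout diets exchanged these were -1.66 (adjusted p = 0.105) and -1.88 (adjusted p = 0.0732). Both probes passed in 5 of 9 other settings, among them the authors' log2 values, which also exchange the knockout diets. Apoe was -0.82 ± 0.19 (adjusted p = 0.389), and Apoc2 was -0.28 ± 0.31 and -0.67 ± 0.43. A difference in diet effect between the genotypes was thus not called for any member.

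**Figure D2:**
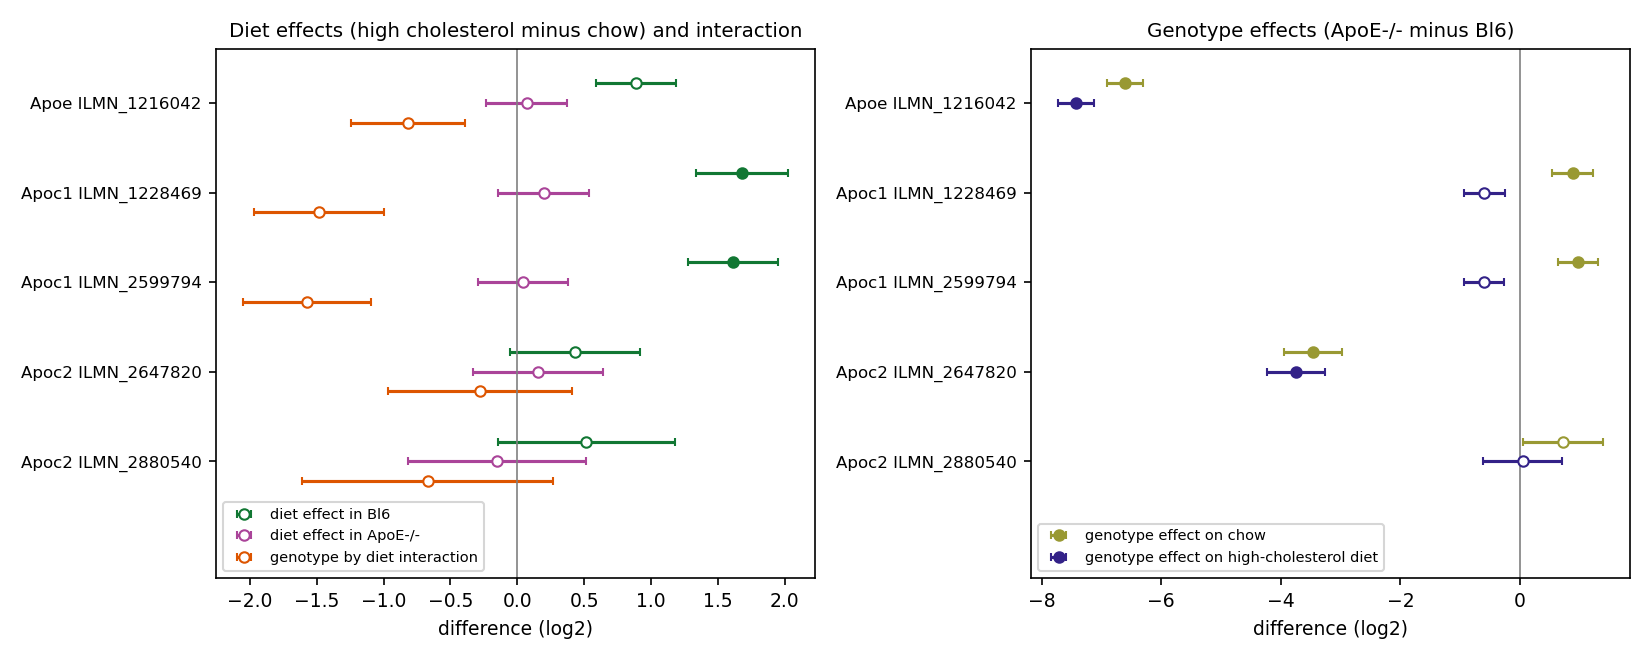
Differences on the log2 scale (x axes) for each probe (y axes), with 95% intervals from limma. The left panel shows the diet effect in each genotype and the interaction, the right panel the genotype effect on each diet, and filled points have an adjusted p under 0.05. The diet effect in Bl6 is filled for both Apoc1 probes only, and the genotype effects of Apoc1 lie above 0 on chow and below 0 on the high-cholesterol diet.

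Genes around the cluster were set beside the members. Within 500 kb of Apoe, measured between gene midpoints, 41 tested probes of 29 other genes were found. Of these probes, 1 rose and 3 fell in ApoE-/- averaged over diets, 9.76% against 1.60% of all tested probes. Zfp296, a zinc finger gene, rose by 0.45 ± 0.09 (adjusted p = 0.031). Clasrp, a splicing regulator gene, fell by 2.49 ± 0.11. Cd3eap, which encodes a subunit of RNA polymerase I, fell by 1.94 ± 0.11, and Pvr, the poliovirus receptor gene, fell by 1.93 ± 0.15. These Cd3eap and Pvr probes were not the brightest of their genes, and the Pvr probe was detected on 7 of the 12 arrays.

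Like Apoc2, each gene with a probe that fell has further tested probes, and these missed the threshold. The other Clasrp probe gave -0.06 ± 0.14, but it was detected on only 3 of the 12 arrays. The other Cd3eap probe, its brightest, gave 0.35 ± 0.16. The 3 other Pvr probes lay between -0.26 and 0.39, with the brightest at -0.26. Apoc1, which lies between Apoc2 and Apoe, did not pass on either probe. In the list of 18 cluster neighbours, 16 were measured, and by their brightest probes 1 rose (Zfp296) and 1 fell (Clasrp), with a median of 0.06 against 0.0073 over all genes. Bloc1s3 gave -0.39 ± 0.12 and Ercc2 -0.12 ± 0.14, and neither passed.

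**Figure D3:**
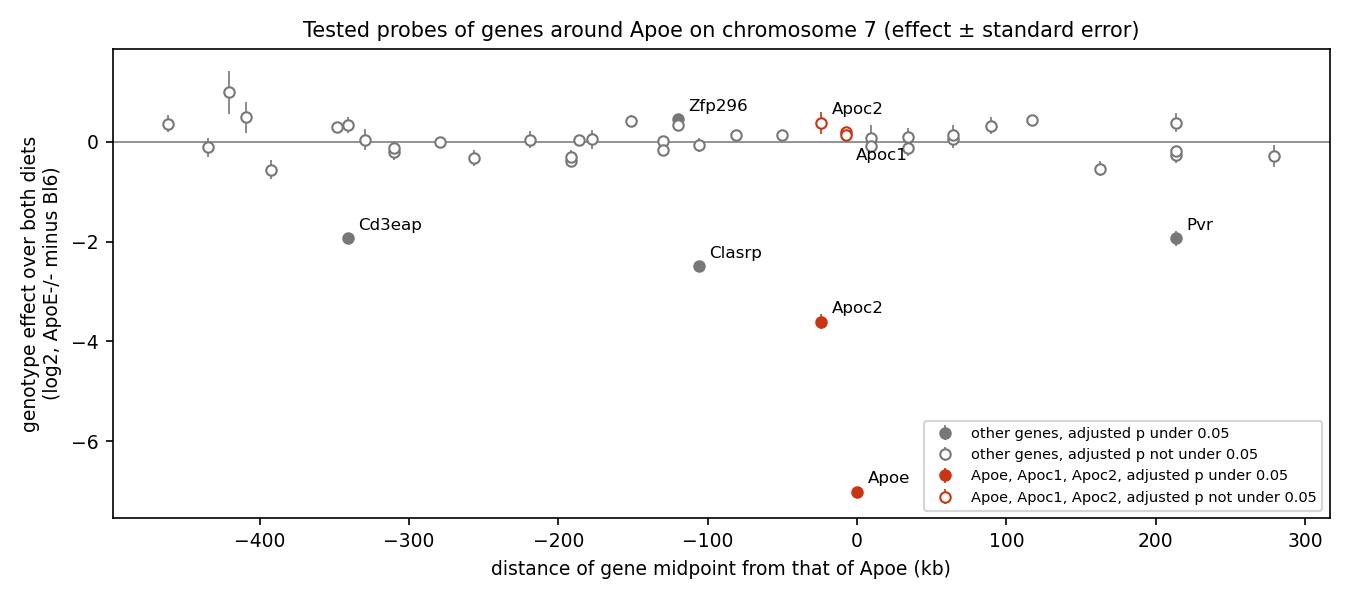
Genotype effect averaged over diets (y axis, log2, ApoE-/- minus Bl6, ± standard error) of tested probes, by the distance of their gene's midpoint from that of Apoe in kb (x axis). Filled points have an adjusted p under 0.05, and red points are Apoe, Apoc1 and Apoc2. Low filled points stand at Cd3eap, Clasrp, Apoc2, Apoe and Pvr, with unfilled points of the same genes near 0 except for Apoe, which has 1 probe.

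Of 4 tested sex-linked genes, 3 separated the genotypes with no overlap, as Apoe did (Xist, Eif2s3y and Kdm5d). Xist, expressed from the inactive X chromosome of female cells, stood at 9.75 to 10.88 on the Bl6 arrays and at 4.17 to 4.39 on the knockout arrays. The Y-linked gene Eif2s3y stood at 4.11 to 4.41 and at 9.75 to 10.44. Uty, also Y-linked, stood at 4.91 to 5.89 and at 5.89 to 6.36, with touching ranges and a difference of 0.64 ± 0.16 (adjusted p = 0.0771). Every genotype difference of the members was thus measured between arrays that also differ in these genes, and genotype and sex cannot be told apart. Within a genotype the arrays did not part in this way.

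Genes with the profile most like a member's over the 12 arrays were ranked by the root mean square difference of centred log2 values, one brightest probe per gene. For Apoe the nearest were Xist (0.714), Apoc2 (1.73) and Psmd8 (1.93), a proteasome subunit gene. For Apoc1 they were Sostdc1 (0.287), Ctla2b (0.339) and Ric3 (0.352). For Apoc2 they were Psmd8 (0.384), Clasrp (0.635) and Zfp420 (0.788), all on chromosome 7. Over the 6 Bl6 arrays alone, which share the step between the diets, Pearson's r with Apoe was highest for Apoc1 (0.994), then Angptl4 (0.989) and Nccrp1 (0.987).

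Partners of the members in lipoprotein metabolism showed few calls. Counted by 1 probe a gene, 0.296% of all tested genes passed for genotype on chow, 0.924% on the high-cholesterol diet and 1.98% averaged, 0.0591% for diet in Bl6, and 0.00% in the other comparisons. None of the 5 measured of 13 other apolipoproteins passed in any of the 6 comparisons, nor did any of 12 measured of 16 receptors and binding partners. Apoa4, Apof, Apom and Apoa2 differed between genotypes over both diets by -0.03, 0.13, 0.23 and -0.14. Among receptors the values were -0.17 ± 0.17 for Scarb1, the high density lipoprotein receptor, 0.31 ± 0.13 for Sorl1, -0.44 ± 0.12 for Sdc4 and -0.03 ± 0.14 for Lrp8. The medians of both lists were 0.13 and -0.05, against 0.0073 over all genes.

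None of the 10 measured of 14 lipases, transfer proteins and regulators passed either. Lpl, the lipase that Apoc2 activates, read 11.16, 11.40 and 11.33 in Bl6 on chow and 12.20, 12.11 and 12.36 with high cholesterol. In ApoE-/- it read 11.62, 11.68 and 10.95 on chow and 11.30, 10.97 and 11.67 with high cholesterol. Between the Bl6 groups the difference was 0.93 ± 0.21 (adjusted p = 0.148). Pltp, which transfers phospholipid between lipoproteins, differed by 0.71 ± 0.16 (adjusted p = 0.148). Angptl4, an inhibitor of the lipase, differed by 0.58 ± 0.19 (adjusted p = 0.259) and Gpihbp1, its endothelial anchor, by 0.03 ± 0.24. The list's median for diet in Bl6 was 0.16, against -0.0036 over all genes.

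Of 15 LXR receptors, partners and targets, 10 were measured and none passed by its brightest probe. For diet in Bl6, Mylip differed by 0.35 ± 0.24, Mertk by 0.20 ± 0.18 and Abcg1, a cholesterol exporter, by 0.45 ± 0.19 (adjusted p = 0.367), and the list's median was 0.17. A dimmer probe of Mertk, a receptor for dying cells, fell by 0.71 ± 0.13 in ApoE-/- averaged over diets (adjusted p = 0.026). The brightest Mertk probe had no adjusted p below 0.25 in any comparison. Among 10 measured of 12 other factors described at Apoe enhancers, 1 fell in ApoE-/- averaged over diets. It was Pparg, a fatty acid receptor, which fell by 0.36 ± 0.08 (adjusted p = 0.045). Stat3 gave 0.43 ± 0.14, Spi1 0.21 ± 0.09 and Cebpb 0.18 ± 0.10, and the list's median was 0.14.

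The labelled cell type was checked through its markers, and other cell types were followed beside the members. In bulk samples, fewer cells of a type and less RNA per cell cannot be told apart. Itgax, which encodes CD11c, was detected on all 12 arrays and read 8.03 to 8.74. All 16 dendritic cell markers were measured, 1 of them fell in ApoE-/- averaged over diets (Cadm1), and none passed for diet. Their mean ran from 9.84 to 9.94 in the knockout and from 9.87 to 10.11 in Bl6.

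Macrophage markers were present too, and Cd5l was not tested. For 18 measured of 20, the mean was 11.63 to 11.85 in Bl6 on chow and 11.96 to 12.00 in Bl6 on the high-cholesterol diet, where Apoc1 and Apoe also read higher. Most of that step came from Vsig4: the difference in means was 0.27 with it and 0.080 for the other 17 markers, whose means overlapped, at 11.95 to 12.19 on chow and 12.09 to 12.16 on the diet. Vsig4 was left out after seeing the data, while Marco, the lowest of the 18 at -0.65 ± 0.87, was kept. None of the 18 passed for diet in Bl6, their median difference was 0.09, and 15 lay above 0. Vsig4, a complement receptor, had the largest difference of the 18, from 5.57 to 6.34 on chow to 9.34 to 9.69 on the diet, with an adjusted p of 0.106. Across genotypes, with the diets averaged, C1qa fell by 0.46 ± 0.08 and Cd68 by 0.57 ± 0.11 in ApoE-/-. The marker means were 11.59 to 11.86 and 11.58 to 11.84 in the 2 ApoE-/- groups. Averaged over diets, 13 of the 18 markers lay below 0 in ApoE-/-, with a median of -0.30 against 0.0073 over all genes. On each diet alone 14 lay below 0, with medians of -0.21 on chow and -0.46 with high cholesterol. Without Vsig4 the knockout means were 11.70 to 12.14 on chow and 11.70 to 12.13 on the diet, reaching below the Bl6 chow range. The part of macrophage content in the Apoc1, Apoe and Apoc2 differences was not tested.

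**Figure D4:**
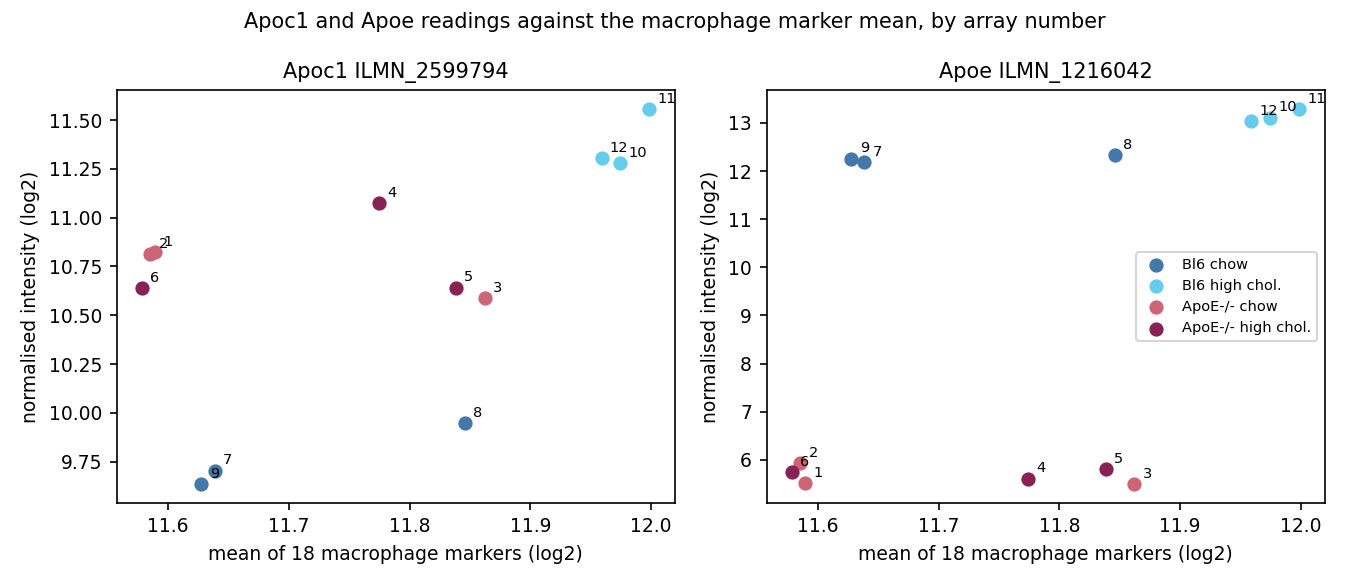
Normalised log2 intensity of Apoc1 ILMN_2599794 (left) and Apoe (right) on the y axes, against the mean of 18 macrophage markers on each array (x axes), with array numbers beside the points. The 3 Bl6 high-cholesterol arrays stand at the top right in both panels. Most of their distance from the Bl6 chow arrays on the x axis is due to Vsig4. The knockout arrays overlap the Bl6 chow arrays on the x axis while parting from them on the y axis. Without Vsig4, the macrophage mean of knockout arrays 1, 2 and 6 is 11.70 on each, below the Bl6 chow range of 11.95 to 12.19.

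Neutrophil markers moved with genotype. Of 10 measured of 12, 7 rose in ApoE-/- averaged over diets, against 1.98% of all tested genes called in either direction. On chow alone none was called, and on the high-cholesterol diet 6 were, against 0.296% and 0.924% of all tested genes. The 7 included S100a8 at 1.10 ± 0.14, S100a9 at 1.19 ± 0.15, Camp at 1.68 ± 0.22 and Ltf at 1.76 ± 0.25, all products of granulocytes. Averaged over the 10 genes, the knockout arrays stood at 8.22 to 8.96 and the Bl6 arrays at 7.41 to 7.76. In the remaining lists, also averaged over diets, 2 of 9 T and NK cell markers (Thy1 and Cd6) rose. So did 1 of 6 monocyte markers (F13a1), and 1 of 5 erythroid markers (Epor) fell. No B cell marker (5 measured) and no stromal, endothelial or liver-type marker (3 measured) passed. The part of these cell types in the members' genotype differences was not tested.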

How the data were processed

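The deposited table of intensity values gives 46237 probes on 12 arrays with, per the file headers, a signal and a detection p-value each, and the signal was neither background-corrected nor normalised. A second deposited table holds log2 values, which equal log2 of the intensities plus a constant per array of 0 to 0.443, and it exchanges the diets of the ApoE-/- arrays. Scanner software and its version are not given in the sources used here.

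Intensities were corrected with normexp (limma 3.58.1, R 4.3.3, offset 16, with the negative controls inferred by limma from detection), quantile-normalised and logged (log2). Probes with detection p under 0.05 on at least 3 arrays were tested in 1 model of 4 group means (8 residual degrees of freedom), with two-sided moderated tests. Benjamini-Hochberg adjustment ran over all 26390 tested probes. The number of arrays limits the precision. Ranges that do not overlap are given as description only, without the share of all probes that part in this way. In the text ± is the standard error unless SD is stated.

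The probe list named 35784 probes with 1 symbol and left 10453 unnamed. These symbols were brought up to date through the RefSeq table of GRCm38.p6 by gene number (28620), transcript (2637), symbol (2128) or synonym (2343), and 56 stayed unmatched. A list counts each gene by its brightest tested probe. Members and lists were chosen with earlier results of these data known. For each list up to 4 genes were named, those that passed first, by adjusted p, and then those with the smallest mean p. Genes named outside that rule (Nr1h3, Marco, Timd4, Itgax, Pvr, Cd3eap, the sex-linked genes) were picked with their values in view. Each step was first tested on simulated data. Alternatives were no background correction, an offset of 50, a median shift, all probes, probes detected on all arrays, the authors' log2 table, exchanged diets, only the groups compared, array weights, a variance trend, and each array left out. Alternatives with all 6 ApoE-/- arrays as 1 group, and with Vsig4 left out of the macrophage mean, were added after seeing the data.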

Additional observations from a re-analysis of the deposited data

How the results depend on the processing

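Of 660 repeats of the members' tests, 594 kept direction and side of the threshold, 20 lost and 29 gained a call, and 17 changed sign. Of 132 repeats of the counts of all calls, 69 stayed within 1.5 times the main count and 63 did not. In every alternative and every fit without 1 array, Apoe and Apoc2 ILMN_2647820 kept their genotype calls, on each diet and averaged. The authors' log2 values were fitted under their own names, so the diets of the ApoE-/- arrays are exchanged in that setting too. Exchanging these names alone turns every sign of the diet effect in ApoE-/- by construction. The cause of the other changes below was not tested.

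For the genotype effect on chow, Apoc1 ILMN_1228469 lost its call with all probes tested (0.89, adjusted p = 0.054) and with only the groups compared (0.89), as did ILMN_2599794 in the latter (0.98). Leaving out 1 array gave 0.73 to 0.97 and 0.92 to 1.07. On the high-cholesterol diet ILMN_1228469 passed without background correction (-0.55), with the offset of 50 (-0.58), in the authors' log2 values (-0.71), with a variance trend (-0.60) and with the knockout arrays as 1 group (-0.69). ILMN_2599794 passed in the same 5 settings (-0.57, -0.59, -0.60, -0.60, -0.62). Apoc2 ILMN_2880540 ran from -0.26 to 0.30 there without 1 array.

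For diet in Bl6, Apoe passed without background correction (0.88), with the offset of 50 (0.88), after the median shift (1.05), among probes detected on all arrays (0.89), in the authors' log2 values (1.00) and with a trend (0.89). Without 1 array it gave 0.82 to 0.94, with a call without array 2. Apoc1 ILMN_1228469 lost its call with only the Bl6 groups (1.68).

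For diet in ApoE-/-, the authors' values and the exchanged names turned the sign of Apoe (-0.082, -0.070), Apoc1 ILMN_1228469 (-0.21, -0.20), Apoc1 ILMN_2599794 (-0.069, -0.043) and Apoc2 ILMN_2647820 (-0.11, -0.15), and the exchange that of Apoc2 ILMN_2880540 (0.15). The median shift turned ILMN_2599794 (-0.034). Without 1 array these ran from -0.0072 to 0.21 (Apoe), -0.10 to 0.12 (ILMN_2599794), -0.042 to 0.29 (ILMN_2647820) and -0.42 to 0.034 (ILMN_2880540).

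For the interaction, Apoe passed without background correction (-0.85) and in the authors' values (-1.08). Apoc1 ILMN_1228469 passed without background correction (-1.30), with the offset of 50 (-1.40), among probes detected on all arrays (-1.48), in the authors' values (-1.71) and with a trend (-1.48). ILMN_2599794 passed in the same settings (-1.48, -1.54, -1.57, -1.63, -1.57).

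Calls over all probes numbered 67 on chow (26 to 277 over alternatives), 202 on the high-cholesterol diet (22 to 642), 423 averaged (332 to 1653), 10 for diet in Bl6 (4 to 266), 0 for diet in ApoE-/- (0 to 1) and 0 for the interaction (0 to 10). Without 1 array they were 26 to 77, 38 to 157, 142 to 605, 2 to 41, 0 and 0. No paired analysis was possible because the sample numbers run from 1 to 12 and no group shares a number with another. The dim Apoc2 probe and the knockout readings of Apoe lie near background, which limits their differences.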

Other observations

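The 6 ApoE-/- arrays did not part by either table's diet names in some macrophage markers. Vsig4, a complement receptor of resident macrophages, read 9.71, 9.72 and 7.12 on arrays 1 to 3 and 8.36, 6.96 and 9.58 on arrays 4 to 6. Marco, a scavenger receptor of marginal zone macrophages, read 8.54, 8.23 and 11.55, then 11.51, 11.73 and 8.71. Timd4, a receptor for dying cells, read 8.91, 8.88 and 10.51, then 10.51, 10.32 and 8.93. Nr1h3, which encodes an LXR receptor, read 10.78, 10.96 and 12.01, then 11.59, 12.04 and 10.80. Arrays 1, 2 and 6 thus stood on one side and 3, 4 and 5 on the other for these 4 genes. The means of macrophage, T and NK cell, monocyte, neutrophil and erythroid markers parted the same way. Those of dendritic cells, of B cells and of stromal, endothelial and liver-type cells did not. The macrophage mean includes Vsig4, Marco and Timd4, so its split is not separate from theirs. Whether the other macrophage markers part in this way was not tested. The macrophage mean was 11.59, 11.59 and 11.86 on arrays 1 to 3 and 11.77, 11.84 and 11.58 on arrays 4 to 6. For T and NK cells it was 9.48, 9.54 and 9.36, then 9.17, 9.22 and 9.59, and for monocytes 7.68, 7.75 and 7.24, then 7.59, 7.29 and 7.77. Apoc1 ILMN_2599794 did not follow this split, with 10.82, 10.81 and 10.64 on arrays 1, 2 and 6 and 10.59, 11.08 and 10.64 on arrays 3, 4 and 5.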
